A study of Homo sapiens with 12 samples.

Results

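The BCL-2 family genes BMF, BCL2L11, BBC3, PMAIP1, BIK, BAX, BAK1, BCL2, BCL2L1 and MCL1 were read from RNA-seq libraries of C4.2B cells treated with a PI3K inhibitor, an EZH2 inhibitor or both. The 10 members were chosen by name, and all 10 were among the 23228 genes listed in the count data and passed the filter on low counts. C4.2B is a castration-resistant line of human prostate cancer cells. Each of 4 arms held 3 libraries, called A, B and C, made from plates seeded in triplicate, so p-values measure the spread between plates of 1 line. DMSO is the vehicle arm, GDC received GDC-0941 (a PI3K inhibitor) at 0.5 µM, GSK received GSK126 (an inhibitor of the histone methyltransferase EZH2) at 5 µM, and COMBO received both. Treatment took place over 24 h in 10% serum stripped with charcoal, and cells of the GSK and COMBO arms had first been exposed to GSK126 for 6 days.

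The BCL-2 family sets whether the outer membrane of mitochondria is breached during apoptosis. BAX and BAK1 are the effectors that form pores in that membrane, MCL1, BCL2L1 (which encodes BCL-XL) and BCL2 hold them in check, and the BH3-only proteins BIM (BCL2L11), PUMA (BBC3), NOXA (PMAIP1), BMF and BIK bind and neutralise the anti-apoptotic proteins or engage the effectors directly. NOXA binds mainly MCL1, whereas BIM and PUMA bind all the main anti-apoptotic proteins. Transcription of several BH3-only genes is known to be raised by FOXO factors, which PI3K signalling through AKT keeps out of the nucleus, and PUMA, NOXA and BAX are known targets of p53.

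Each library held 8785218 to 44437751 reads in genes, and each member had at least 76 counts summed over the 3 libraries of any arm. Transcripts of the targeted enzyme EZH2 were at 105, 81.8, 56.3 and 34.9 TMM-scaled CPM (counts scaled to library size) on average in DMSO, GDC, GSK and COMBO, which does not measure inhibition of the protein. All 9 prostate luminal markers were detected in every arm. Their summed level was 3157 to 3360 CPM in DMSO, 4654 to 4761 in GDC, 4582 to 4977 in GSK and 5867 to 6319 in COMBO. KLK3 and FOLH1 had the highest levels of the list. They did not all rise, since HOXB13 and EPCAM were lower in COMBO than in DMSO, with log2 changes of -0.68 and -0.51 in edgeR, and 6 of the 9 were higher. Marker sums in this paragraph were scaled by library totals alone, without TMM. Of the 5 fibroblast markers, COL1A2 had 1 count in GSK and 0 elsewhere, and the summed level of the list was 9.59 to 11.0 CPM in DMSO, 10.6 to 13.8 in GDC, 27.0 to 39.9 under GSK and 31.3 to 52.6 under COMBO, nearly all of it COL1A1. The 4 leukocyte markers summed to 4.51 to 5.26 CPM in DMSO and 8.58 to 11.2 CPM in COMBO with CD3E at 0 in all 12 libraries, and the 3 endothelial markers, nearly all VWF, summed to 2.55 to 3.04 CPM in DMSO, 4.22 to 6.63 in GDC, 5.78 to 6.37 under GSK and 5.24 to 5.91 under COMBO. Reads outside genes averaged 14.2%, 15.6%, 18.8% and 21.8% of all reads in DMSO, GDC, GSK and COMBO. They therefore moved in step with the arms, and their part in the member changes was not tested.

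The sequences below lie just upstream of members whose transcripts moved in different ways. They are the 250 bases before the RefSeq start on GRCh38.p14, read 5′ to 3′ on the strand of the gene, and RefSeq promoter windows were at hand for 8 of the 10 members (BMF, BCL2L11, BBC3, PMAIP1, BAX, BAK1, BCL2 and BCL2L1). BMF, which rose most in GSK and COMBO, and PMAIP1, which fell most in every inhibitor arm, both start in CpG-dense DNA, and capitals mark each CpG, 26 in the BMF stretch at chr15:40108880-40109129 (minus strand) and 36 in the PMAIP1 stretch at chr18:59899746-59899995 (plus strand).
BMF: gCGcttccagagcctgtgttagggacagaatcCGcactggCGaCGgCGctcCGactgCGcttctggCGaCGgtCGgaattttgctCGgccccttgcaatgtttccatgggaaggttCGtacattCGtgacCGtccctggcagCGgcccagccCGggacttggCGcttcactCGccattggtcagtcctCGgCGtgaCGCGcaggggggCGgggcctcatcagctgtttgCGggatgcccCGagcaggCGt
PMAIP1: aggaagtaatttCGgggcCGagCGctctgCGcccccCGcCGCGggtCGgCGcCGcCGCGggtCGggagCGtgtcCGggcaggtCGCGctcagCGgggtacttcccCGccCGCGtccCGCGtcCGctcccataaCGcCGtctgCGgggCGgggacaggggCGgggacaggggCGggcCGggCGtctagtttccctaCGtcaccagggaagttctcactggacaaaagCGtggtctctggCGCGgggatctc
In the full windows of 300 bases, which reach 50 bases past the start, the ratio of observed to expected CpG was 0.978 for BMF and 1.11 for PMAIP1, against a median of 0.580 over 27305 promoters. Both ratios lay above that median, and the relation of CpG density to the changes was not tested. The ratio was also high for BAX (1.15), BCL2L1 (0.986), BCL2L11 (0.940) and BCL2 (0.829), and low for BBC3 (0.311) and BAK1 (0.282).

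The same windows were searched on both strands for a FOXO core (GTAAACA), an E-box (CACGTG), an E2F core (TTTGGCGC) and an ATF4 core (TGATGCAA). The FOXO core was found in BCL2L11 alone among the 8 members, and 3.41% of all promoters held it. The stretch at chr2:111120664-111120913 (plus strand) has the match in capitals, starting 223 bases before the start.
BCL2L11: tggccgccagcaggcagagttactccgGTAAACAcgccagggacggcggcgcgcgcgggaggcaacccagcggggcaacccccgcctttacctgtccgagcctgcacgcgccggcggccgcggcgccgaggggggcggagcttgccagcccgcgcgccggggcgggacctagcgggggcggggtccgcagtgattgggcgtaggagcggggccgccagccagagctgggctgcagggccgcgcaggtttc
The E-box was found in BBC3 and BAX, and in 7.43% of all promoters. It is in capitals in the BBC3 stretch at chr19:47232668-47232917 (minus strand), where it occurs 1 time, and in the BAX stretch at chr19:48954625-48954874 (plus strand), where it occurs 4 times.
BBC3: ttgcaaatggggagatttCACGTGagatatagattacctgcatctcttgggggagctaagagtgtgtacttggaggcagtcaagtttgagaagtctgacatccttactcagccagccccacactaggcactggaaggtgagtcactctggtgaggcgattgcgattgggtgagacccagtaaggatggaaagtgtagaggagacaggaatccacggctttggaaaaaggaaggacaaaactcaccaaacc
BAX: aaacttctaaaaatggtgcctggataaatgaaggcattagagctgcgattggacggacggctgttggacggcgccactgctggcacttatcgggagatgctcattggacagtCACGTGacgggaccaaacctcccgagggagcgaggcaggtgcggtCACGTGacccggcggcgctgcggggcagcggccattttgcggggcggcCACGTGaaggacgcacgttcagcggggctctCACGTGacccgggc
Neither the E2F core (in 0.659% of all promoters) nor the ATF4 core (0.923%) was found in these 8 windows. A match describes the letters of the window and is not evidence of binding.

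To compare members with one another, levels were divided by the length of each gene's merged exons and scaled to a common total (TPM), and the positions given are those of GENCODE 44 on hg38. In DMSO, MCL1 (chromosome 1, 150560895 to 150579738) stood highest, at 183, 174 and 173 TPM in libraries A, B and C. BCL2L1 (chromosome 20, 31664452 to 31723989) followed at 105 ± 1.48 TPM, BAX (chromosome 19, 48954815 to 48961798) at 85.6 ± 6.41 and BIK (chromosome 22, 43110750 to 43129712) at 75.2 ± 2.53 (SD, n = 3). BAK1 (chromosome 6, 33572547 to 33580293) was at 45.9 ± 3.02 TPM, BCL2L11 (chromosome 2, 111119378 to 111168444) at 37.3 ± 0.386 and PMAIP1 (chromosome 18, 59899996 to 59904305) at 29.4 ± 1.99. The lowest were BMF (chromosome 15, 40087890 to 40108892) at 12.5 ± 1.12 TPM, BBC3 (chromosome 19, 47220822 to 47232766) at 3.84 ± 0.657 and BCL2 (chromosome 18, 63123346 to 63320128) at 1.29 ± 0.0220. No neighbours in this order had overlapping libraries in DMSO, which describes the spread of libraries alone. The order also depends on the lengths used, since BAX has 2587 bases of merged exons but a longest transcript of 1358. An order by longest transcript was not computed. Among the 3 anti-apoptotic members, MCL1 and BCL2L1 thus held 62.3% and 37.2% of the summed TPM in vehicle-treated cells, while BCL2 made up 0.457%. BCL2L2, a further anti-apoptotic gene outside this sum, was at 52.5 TMM-scaled CPM in DMSO, beside 99.9 for BCL2L1 and 3.69 for BCL2. BIK, a BH3-only protein that resides at the endoplasmic reticulum, accounted for 47.5% of the BH3-only TPM, BCL2L11 for 23.6%, PMAIP1 for 18.6%, BMF for 7.91% and BBC3 for 2.42%.

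**Figure D1:**
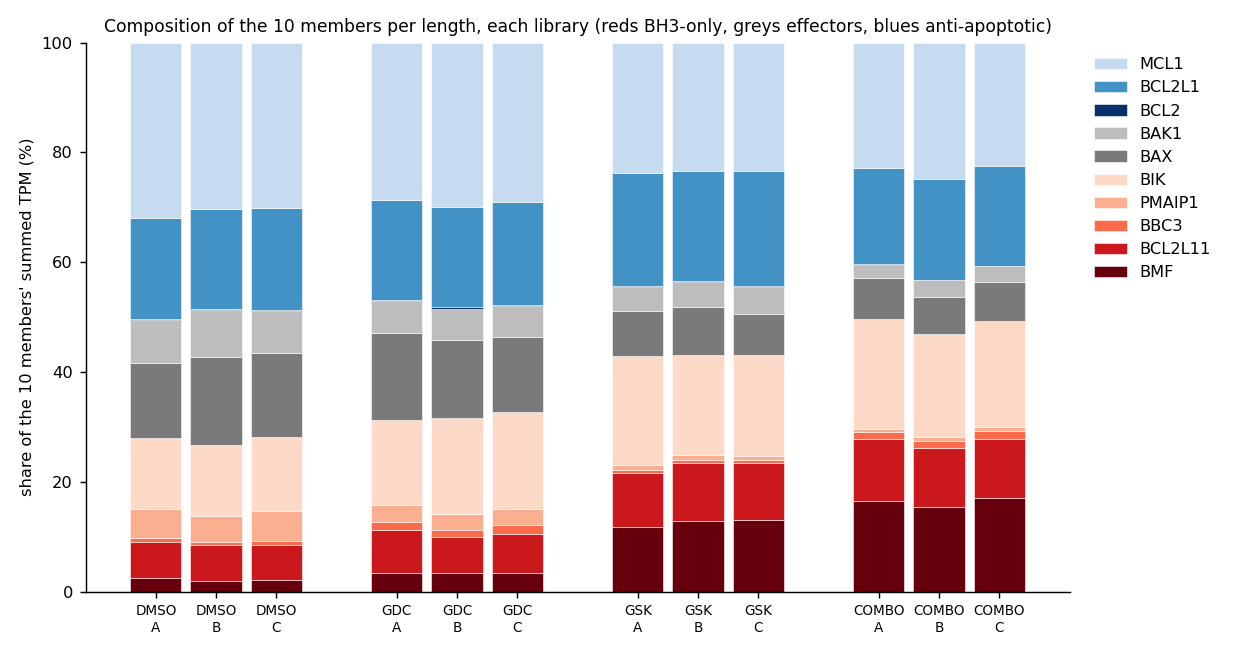
Share of the summed TPM of the 10 members (vertical axis, %) in each of the 12 libraries (bars, 3 per arm), with BH3-only members in reds, effectors in greys and anti-apoptotic members in blues. BMF held 2.19% of the total on average in DMSO and 16.4% in COMBO, whereas the share of MCL1 fell from 30.8% to 23.3%.

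The order of levels differed between arms through BMF, BAX, PMAIP1, BIK and BAK1 above all. MCL1 remained highest in every arm, at a mean of 174 TPM in GDC, 170 in GSK and 185 in COMBO, and BCL2 remained lowest, at 1.31, 0.925 and 0.776 TPM. BMF stood 8th of 10 in DMSO, 7th in GDC and 4th in both GSK and COMBO, and PMAIP1 moved from 7th in DMSO to 8th in GDC and GSK and 9th in COMBO. BAX stood 3rd in DMSO, 4th in GDC and 6th in GSK and COMBO, and BAK1 5th, 6th and 7th. BIK went from 4th in DMSO to 3rd in GDC and GSK and 2nd in COMBO, with means of 99.9, 137 and 154 TPM. In GDC the libraries of BIK overlapped those of its neighbours BCL2L1 and BAX, and no other neighbours overlapped in any arm. All these ranks hold for merged exon lengths and could differ with other lengths, for which ranks were not computed. These per-length levels are shares of each library, so MCL1 and BCL2L1 can stand higher in TPM while their scaled CPM, used below to compare arms, is lower or less raised.

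To ask what PI3K inhibition alone did, GDC was compared with DMSO on CPM scaled by TMM (edgeR quasi-likelihood test, Benjamini-Hochberg adjustment over 14189 tested genes). In the main fit, GDC raised 4 of the 5 BH3-only genes and lowered the fifth and 1 of the 2 effectors. None of the 3 anti-apoptotic genes passed the test. The rise of BCL2L11 passed narrowly (adjusted p = 0.0481, edgeR) and was not called in 18 of 19 alternatives. DESeq2 called 5 members. In all, 6 of 10 members passed an adjusted p of 0.05, 4 higher and 2 lower, where 40.1% of all tested genes did (20.0% higher and 20.0% lower), and the same number had libraries that did not overlap DMSO, where 50.7% of all genes did. The median log2 change of the 10 members was -0.0022, beside 0.016 over all genes. The even split over all genes depended on the fit, and DESeq2 called 2016 higher and 3193 lower of 19935. In these bulk libraries, fewer cells of a type and less RNA per cell cannot be told apart.

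BBC3, which encodes PUMA, showed the largest rise in GDC. It was at 2.84, 2.27 and 3.18 CPM in DMSO and at 5.92, 5.91 and 6.64 CPM in GDC, so every GDC library lay above every DMSO library. The log2 fold change was 1.12 (SE 0.14, adjusted p = 4.98e-06), and 98.2% of tested genes had a lower one. BBC3 overlaps the microRNA genes MIR3191 on its own strand and MIR3190 on the other, and its counts are the lowest of the BH3-only group in DMSO, with 200 reads in all, so it is read with that reserve. PMAIP1, which encodes NOXA, moved the opposite way, from 15.1, 13.5 and 15.0 CPM to 8.57, 8.44 and 8.58 CPM. Its GDC libraries lay below all DMSO libraries, and the log2 value was -0.77 (SE 0.11, adjusted p = 1.68e-05), and 0.958% of tested genes fell more.

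BMF, whose protein is tethered to cytoskeletal motor complexes until released, was at 16.8, 14.5 and 14.9 CPM in DMSO and 23.8, 24.5 and 24.9 CPM in GDC, a rise of 1.61-fold. BIK went from 15.7, 16.0 and 16.8 CPM to 18.4, 22.1 and 22.0 CPM, a log2 change of 0.36 (SE 0.078, adjusted p = 0.00106). BCL2L11, which encodes BIM, was at 56.9, 57.4 and 56.4 CPM in DMSO and 65.6, 59.3 and 62.4 CPM in GDC. The libraries did not overlap, but the change of 0.13 (SE 0.051) had an adjusted p of 0.0481 in edgeR, and the call was lost in 18 of 19 alternatives, where its value was 0.058 to 0.13.

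Among the effectors, BAK1 fell from 22.1, 24.9 and 21.9 CPM to 16.3, 16.8 and 16.3 CPM, a log2 change of -0.48 (SE 0.089, adjusted p = 0.000245). BAK1 overlaps GGNBP1 on the other strand and has 2 named pseudogenes, so some of its reads are uncertain. BAX was at 45.5, 53.7 and 51.1 CPM in DMSO and 51.5, 49.5 and 46.0 CPM in GDC, and its change of -0.05 had a 95% interval from -0.18 to 0.09. The anti-apoptotic genes overlapped between the arms as well. The changes were -0.07 for MCL1 (interval -0.17 to 0.03), 0.0088 for BCL2L1 (-0.09 to 0.10) and -0.01 for BCL2 (-0.34 to 0.31), so a shift of BCL2 of up to about that size was not detectable at this depth.

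**Figure D2:**
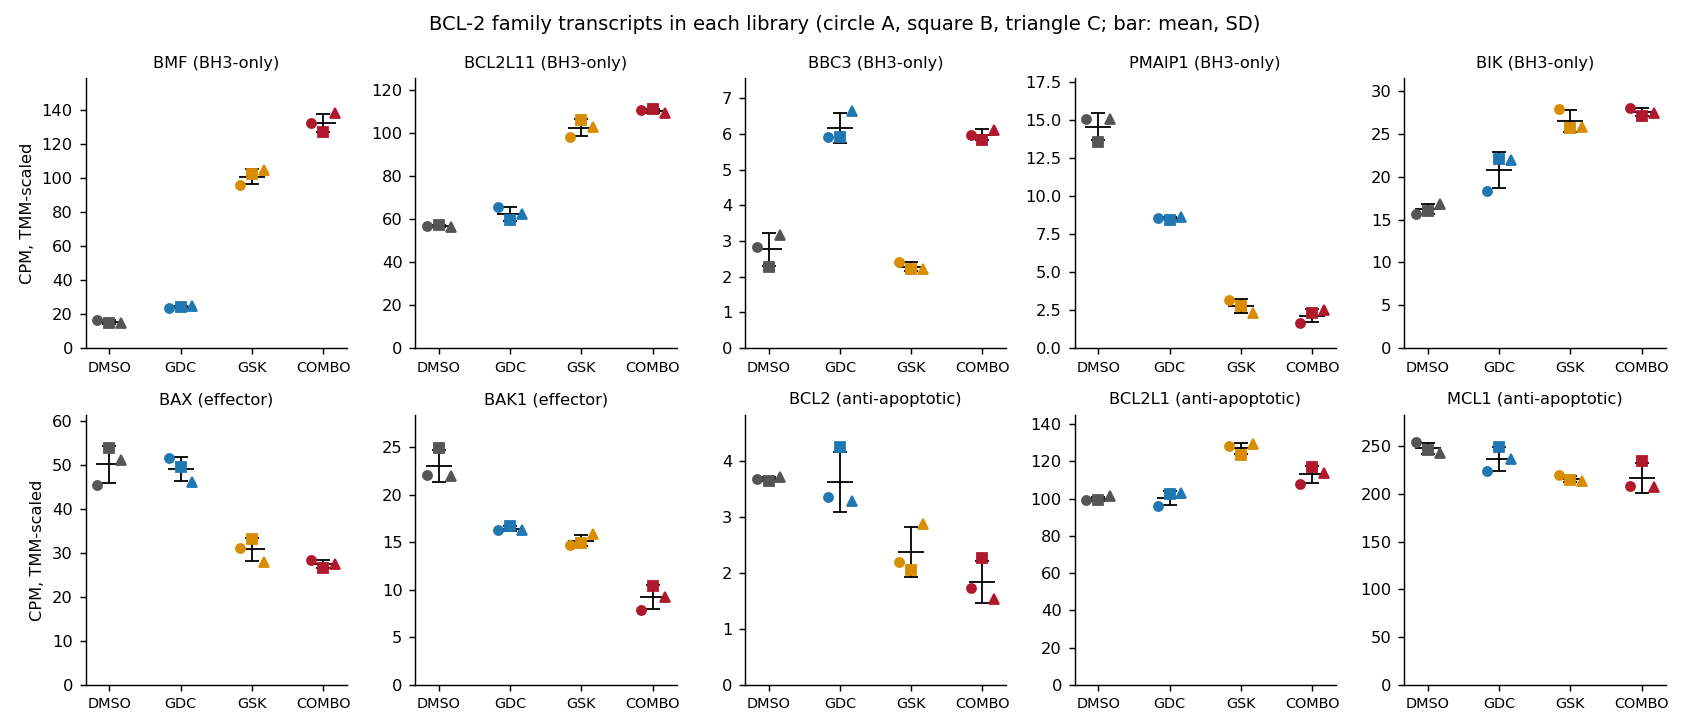
TMM-scaled CPM (vertical axes, from 0) of the 10 members in the 12 libraries, by arm (horizontal axes), with markers for libraries A, B and C and a bar for the mean and SD of each arm. BBC3 is high in the GDC and COMBO libraries only. BMF, BCL2L11, PMAIP1, BIK, BAX, BAK1, BCL2 and BCL2L1 separate the GSK and COMBO libraries from the DMSO and GDC libraries, narrowly for BAK1.

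EZH2 inhibition alone was read from GSK against DMSO. In GSK, BMF, BCL2L11 and BIK rose, PMAIP1 fell and BBC3 did not pass the test, both effectors fell, and of the anti-apoptotic genes BCL2L1 rose while BCL2 and MCL1 fell. Compared with DMSO, 9 of 10 members were called, 4 higher and 5 lower, beside 75.7% of all tested genes (40.0% higher and 35.7% lower), and 9 had libraries that did not overlap, beside 76.5%. Their median log2 change was -0.26, where that of all genes was 0.058. GDC and GSK were both compared with the same 3 DMSO libraries, so their values are given side by side only.

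BMF reached 95.8, 103 and 105 CPM in GSK, where no DMSO library exceeded 16.8 CPM. Its log2 fold change of 2.74 (SE 0.063) was larger than that of 97.5% of tested genes. PMAIP1 dropped to 3.19, 2.77 and 2.29 CPM where the lowest DMSO library had 13.5, a log2 change of -2.42 (SE 0.14, adjusted p = 6.00e-12), and only 0.0282% of tested genes fell further. The 2 members thus lay near opposite ends of the distribution of all genes in the same libraries.

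BCL2L11 rose to 98.3, 106 and 103 CPM, a log2 change of 0.85 (SE 0.050, adjusted p = 6.69e-12). BIK was at 27.9, 25.7 and 25.8 CPM, 1.62-fold above DMSO (adjusted p = 1.11e-07, edgeR). BBC3 was at 2.42, 2.21 and 2.20 CPM and overlapped DMSO, and its change of -0.33 (SE 0.18) had an adjusted p of 0.112 in edgeR, which became 0.0246 without DMSO B, at -0.47. The difference between the BBC3 responses to the 2 inhibitors was not tested.

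BAX, which moves from the cytosol to mitochondria when activated, was at 31.2, 33.2 and 28.0 CPM in GSK, below all DMSO libraries, with a log2 change of -0.71 (SE 0.074, adjusted p = 3.30e-08). BAK1, which resides on mitochondria, was at 14.7, 14.9 and 15.9 CPM and fell by 0.60 on the log2 scale (SE 0.093, adjusted p = 8.89e-06). BCL2L1 rose from 99.3, 99.3 and 101 CPM to 128, 124 and 129 CPM, a change of 0.34 (SE 0.048, adjusted p = 2.14e-06). BCL2 went from 3.68, 3.65 and 3.73 CPM to 2.20, 2.06 and 2.88 CPM, a change of -0.63 (SE 0.19, adjusted p = 0.00571) that rests on 80 reads in GSK. MCL1, whose protein is short-lived, fell from 254, 246 and 243 CPM to 220, 215 and 214 CPM, a change of -0.20 (SE 0.052, adjusted p = 0.00174). MCL1 overlaps ADAMTSL4 on the other strand, and its fall was not called when libraries were scaled by their totals (-0.045, adjusted p = 0.403 in edgeR). Counts per gene cannot separate the isoforms of BCL2L1 and MCL1, some of which are known to promote apoptosis.

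**Figure D3:**
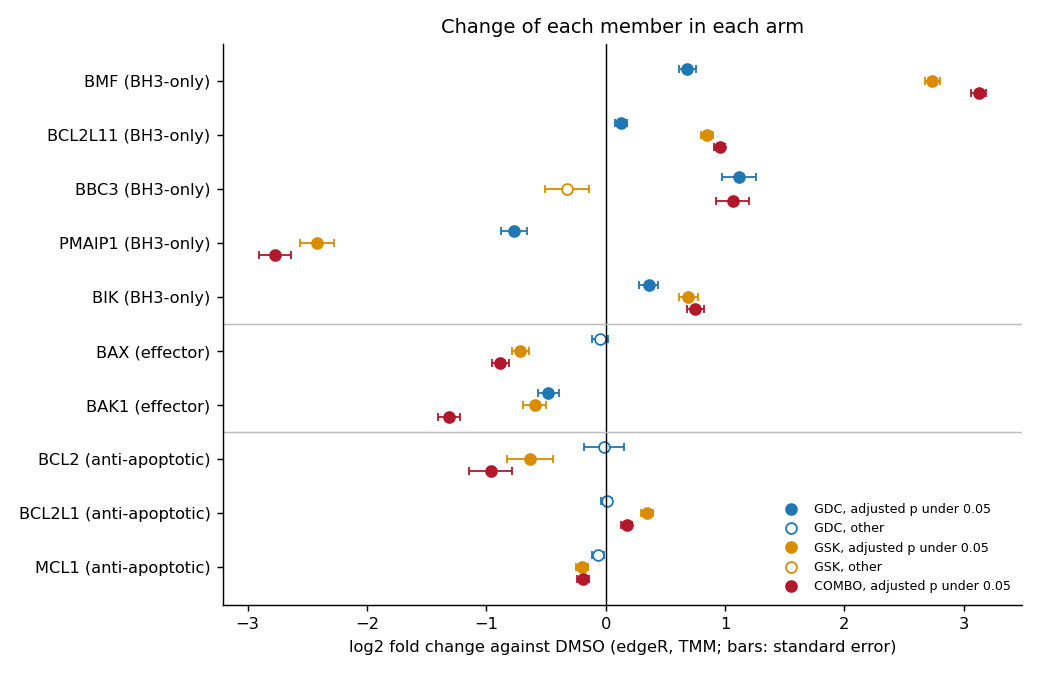
Log2 fold change against DMSO (horizontal axis, with standard errors) of each member in GDC, GSK and COMBO, grouped by class; filled points passed an adjusted p of 0.05 and open points did not. BMF lies at 0.69, 2.74 and 3.13 and PMAIP1 at -0.77, -2.42 and -2.77, while the anti-apoptotic members stay between -0.96 and 0.34.

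With both inhibitors all 10 members differed from DMSO, 5 higher (BMF, BCL2L11, BBC3, BIK and BCL2L1) and 5 lower (PMAIP1, BAX, BAK1, BCL2 and MCL1), and none of them had overlapping libraries. The same held for 82.5% of all tested genes by the test (43.3% higher and 39.2% lower) and for 82.0% by overlap, so the count alone does not set the family apart. The median log2 change of the members was -0.0074, beside 0.054 over all genes, and the class medians were 0.96 for the BH3-only, -1.10 for the effector and -0.19 for the anti-apoptotic members. The classes overlapped, since the BH3-only members ran from -2.77 (PMAIP1) to 3.13 (BMF) and BCL2 lay between the 2 effectors.

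BMF was at 133, 128 and 138 CPM in COMBO, a log2 change of 3.13 (SE 0.061). PMAIP1 was at 1.63, 2.31 and 2.48 CPM, with 114 reads in all, and changed by -2.77 (SE 0.13, adjusted p = 1.13e-13). BCL2L11 was at 110.5, 111 and 109 CPM, 1.94-fold above DMSO (adjusted p = 3.04e-13, edgeR). These 3 genes lay beyond both single-agent arms in mean level, as did BIK, BAX, BAK1 and BCL2, and whether they differed from GSK is given below.

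BBC3 was at 5.98, 5.81 and 6.12 CPM in COMBO and changed by 1.07 (SE 0.14, adjusted p = 5.60e-07). BIK was at 28.0, 27.1 and 27.5 CPM, a change of 0.75 (SE 0.074, adjusted p = 9.09e-09). The effectors BAX, at 28.3, 26.5 and 27.5 CPM, and BAK1, at 7.90, 10.4 and 9.25 CPM, changed by -0.88 (SE 0.071) and -1.31 (SE 0.093). BAK1 therefore stood 2.48-fold below DMSO, the lowest of the 4 arms.

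BCL2 was at 1.74, 2.26 and 1.53 CPM in COMBO, a change of -0.96 (SE 0.18, adjusted p = 5.63e-05). BCL2L1, at 108, 117 and 114 CPM, changed by 0.18 (SE 0.047, adjusted p = 0.00191), which was not called without the filter on low counts (0.13, adjusted p = 0.0542, edgeR). MCL1, at 209, 234 and 207 CPM, changed by -0.19 (SE 0.051, adjusted p = 0.00177), and with library totals the value was 0.016 (adjusted p = 0.764, edgeR), so its direction depended on scaling.

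Adding the EZH2 inhibitor to the PI3K inhibitor changed 9 of 10 members when COMBO was compared with GDC, 4 higher and 5 lower, beside 76.0% of all tested genes (37.9% higher and 38.0% lower), and 8 had libraries that did not overlap, beside 77.0%. BMF was higher by 2.44 (SE 0.059), BCL2L11 by 0.82 (SE 0.050), BIK by 0.39 (SE 0.074) and BCL2L1 by 0.17 (SE 0.048). PMAIP1 was 3.99-fold lower, and also lower on the log2 scale were BCL2 at -0.95, BAX at -0.84, BAK1 at -0.83 and MCL1 at -0.13. The MCL1 libraries of the 2 arms overlapped, and its adjusted p of 0.0308 in edgeR was lost in 13 of 19 alternatives, with a change of sign under library totals (0.046, adjusted p = 0.385). BBC3 was the member not called, at -0.05 with an interval from -0.30 to 0.20.

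Adding the PI3K inhibitor to the EZH2 inhibitor changed fewer members. COMBO differed from GSK in 4 of 10, 2 higher and 2 lower, beside 45.9% of all tested genes (19.0% higher and 26.9% lower), and in 5 the libraries did not overlap, beside 51.9%. BBC3 was higher by 1.39 (SE 0.17, adjusted p = 1.02e-06), and 99.8% of tested genes had a lower value in this comparison. BMF was higher by 0.39 (SE 0.052, adjusted p = 4.13e-06), BAK1 was lower at -0.71 (SE 0.10, adjusted p = 1.42e-05), and BCL2L1 was lower at -0.17 (SE 0.048, adjusted p = 0.00733). The BCL2L1 call was lost without the filter on low counts, without GSK A and without COMBO A.

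The other members were not called between COMBO and GSK. BCL2L11 was at 0.10 (SE 0.048, adjusted p = 0.0842 in edgeR), with all COMBO libraries above all GSK libraries, and it passed the test in 9 alternatives. BAX was at -0.17 (adjusted p = 0.0859, edgeR), and without GSK C it was called at -0.24 (adjusted p = 0.0265). Intervals ran from -0.73 to 0.03 for PMAIP1, from -0.09 to 0.20 for BIK, from -0.76 to 0.10 for BCL2 and from -0.09 to 0.11 for MCL1.

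The interaction, which is the COMBO value plus DMSO less both single agents, asks whether the log2 changes of the single agents add up to that of COMBO. BMF was the 1 member called, at -0.29 (SE 0.088, adjusted p = 0.0207, edgeR), beside 21.4% of all tested genes (4.86% positive and 16.5% negative), so its rise in COMBO was smaller than that sum. The median over all genes was -0.063 (0.049 without the filter on low counts), and 22.1% of tested genes had a lower value than BMF. The call was lost in 11 of 18 alternatives, and without 1 library in turn its adjusted p ranged from 0.0199 to 0.197. BIK at -0.30 (SE 0.11, adjusted p = 0.0518) and BCL2L1 at -0.18 (SE 0.068, adjusted p = 0.0703) followed, and PMAIP1 was at 0.42 (SE 0.22, adjusted p = 0.196).

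The balance of the family was described as the summed TPM of the 7 pro-apoptotic members (5 BH3-only and 2 effectors) over that of the 3 anti-apoptotic members. No test is given for a sum over chosen genes. The ratio was 0.978, 1.05 and 1.04 in DMSO, a level that depends on the members summed and on division by length. It was 1.12, 1.06 and 1.08 in GDC and 1.25, 1.30 and 1.25 in GSK. With both agents it was 1.47, 1.31 and 1.46. The libraries of each inhibitor arm lay above those of DMSO, narrowly for GDC, with differences in mean log2 ratio of 0.089 (0.055 without DMSO A), 0.30 and 0.46. The size depended on gene length, at 0.68 in GSK and 0.90 in COMBO without division by length and 0.19 and 0.34 with the longest transcript, and the GSK value was 0.12 without the members that overlap genes or have pseudogenes.

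The 2 pro-apoptotic classes moved in opposite directions beneath this sum. BH3-only over anti-apoptotic TPM was 0.560 ± 0.0150 in DMSO and 0.666 ± 0.0163, 0.975 ± 0.0140 and 1.17 ± 0.0784 in GDC, GSK and COMBO (SD, n = 3), with each arm above DMSO. Effectors over anti-apoptotic TPM were 0.465 ± 0.0395 in DMSO and 0.424 ± 0.0323 in GDC, which overlapped, and 0.288 ± 0.0156 and 0.239 ± 0.00986 for GSK and COMBO, both below DMSO. In summed TPM, the BH3-only group went from 158 in DMSO to 189, 312 and 385 in GDC, GSK and COMBO, the effectors from 132 to 120, 92.0 and 78.4, and the anti-apoptotic group from 283 to 284, 320 and 329. The anti-apoptotic sum therefore did not fall in any arm on this scale. On TMM-scaled CPM, where no sum was taken, MCL1 and BCL2 were called lower and BCL2L1 higher in GSK and COMBO.

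Much of the rise of the ratio in GSK and COMBO was lost without BMF, the only member left out by itself. Without it, the ratio was 0.981 ± 0.0446 in DMSO and 1.02 ± 0.0287, 0.979 ± 0.0263 and 1.02 ± 0.0554 in GDC, GSK and COMBO (SD, n = 3), and the libraries of all arms overlapped those of DMSO. The differences in mean log2 ratio were then 0.054, -0.0028 and 0.052, so the smaller GDC difference kept more of its size. The BH3-only ratio without BMF still stood above DMSO in each arm, at 0.516, 0.594, 0.691 and 0.779 on average. BIK rose in TPM as well, from 75.2 in DMSO to 137 and 154 in GSK and COMBO. BMF went from 12.5 to 91.0 and 130 in the same arms, and the ratio without BIK was not computed.

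**Figure D4:**
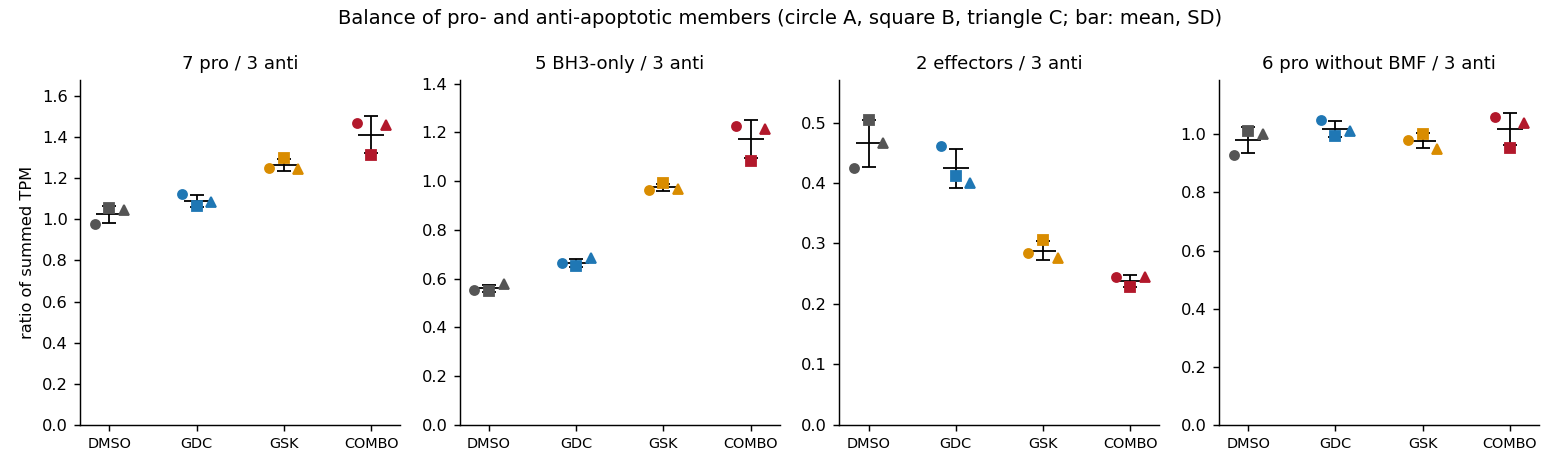
Ratios of summed TPM (vertical axes, from 0) in each library by arm (horizontal axes), with markers for libraries A, B and C and bars for the mean and SD. The pro-apoptotic ratio is 1.02 in DMSO and 1.41 in COMBO on average, the BH3-only ratio climbs, the effector ratio declines, and the ratio without BMF lies between 0.930 and 1.059 in all 12 libraries.

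Within the BH3-only group the make-up shifted from PMAIP1 to BMF. BMF made up 7.91% ± 0.630 of BH3-only TPM in DMSO and 10.8% ± 0.280, 29.2% ± 1.42 and 33.6% ± 0.838 in GDC, GSK and COMBO, while PMAIP1 made up 18.6% ± 0.767, 9.43% ± 0.497, 1.98% ± 0.317 and 1.35% ± 0.285 (SD, n = 3). The ratio of BMF to PMAIP1 TPM was 0.426 on average in DMSO and 1.15, 15.1 and 25.8 in GDC, GSK and COMBO. BCL2L11 kept a share of 22.4% to 23.9% in all arms, and its libraries overlapped DMSO throughout. BIK remained the most abundant BH3-only transcript, with 52.7% in GDC, 43.8% in GSK and 39.9% in COMBO.

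Ratios between pairs of partners were taken in TPM as well. MCL1 made up 62.3% of the summed TPM of the listed anti-apoptotic members in DMSO and 61.1%, 53.3% and 56.2% in GDC, GSK and COMBO. The remainder was almost all BCL2L1. PMAIP1 over MCL1, the pair of NOXA and its main partner, went from 0.167 in DMSO to 0.103, 0.0362 and 0.0281 in GDC, GSK and COMBO. BIM over MCL1 transcripts went the other way, from 0.212 to 0.244, 0.438 and 0.471, as did BMF over BCL2L1, from 0.119 to 0.187, 0.613 and 0.907. BAX over BCL2L1 was 0.814 in DMSO and 0.793 in GDC, which overlapped, and 0.394 in both GSK and COMBO. BAX over BAK1 was 1.87 in DMSO and 2.55, 1.74 and 2.59 in GDC, GSK and COMBO, so the effector pair shifted toward BAX in the 2 arms with the PI3K inhibitor, and the GSK libraries overlapped DMSO.

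The genes most like BMF and PMAIP1 were sought by the root-mean-square difference of the 3 log2 fold changes against DMSO, over 11396 genes with a mean log2 CPM of at least 2. Closest to BMF were FN1 (fibronectin, difference 0.0908), COL16A1 (a collagen chain, 0.0952) and DNAJC6 (auxilin, 0.131). FN1 changed by 0.76, 2.76 and 3.26 in GDC, GSK and COMBO. Closest to PMAIP1 were C4orf46 (0.298), TCOF1 (treacle, which acts in ribosome biogenesis, 0.323) and LYAR (a nucleolar protein, 0.326). C4orf46 changed by -0.53, -2.05 and -2.50, so none of the 3 came as near to PMAIP1 as the first 3 came to BMF.

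Of 7 further members, BAD, BID, BOK and BCL2L2 were tested, and HRK, BCL2A1 and BCL2L10 had at most 9 reads in any arm. In COMBO against DMSO, 1 rose and 2 fell, so 3 of 4 were called beside 82.5% of all tested genes. BOK, an effector-like member, was at 53.8 ± 1.11 CPM in DMSO, 68.4 ± 1.28 in GDC and 60.4 ± 1.65 in COMBO (SD, n = 3), a change of 0.17 in COMBO that was not called by DESeq2, without the filter on low counts, without DMSO C or without COMBO C (0.12 to 0.15). BCL2L2, which encodes the anti-apoptotic BCL-W, changed by -0.31 (adjusted p = 4.72e-05) and BID, which caspase-8 cleaves to link death receptors to mitochondria, by -0.28 (adjusted p = 0.00139) in edgeR, and neither passed with library totals. In GDC, BOK rose and BCL2L2 fell (0.35 and -0.28), and in GSK BAD, a BH3-only protein that AKT inactivates, rose (0.29). The medians of the 4 tested genes were -0.07, -0.02 and -0.16 in GDC, GSK and COMBO, beside 0.016, 0.058 and 0.054 over all genes.

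Of 10 genes for binding partners and turnover of the members, 2 rose and 4 fell in COMBO, none rose and 3 fell in GDC, and 2 rose and 5 fell in GSK, with medians of -0.01, -0.05 and -0.07 in that order. The calls numbered 6, 3 and 7 of 10, beside 82.5%, 40.1% and 75.7% of all tested genes. TRIM17, a ubiquitin ligase of MCL1, changed by 2.14 (SE 0.37, adjusted p = 2.60e-05) in COMBO from 25 reads in all of DMSO. VDAC2, a mitochondrial channel that holds BAK, was at 88.5 ± 0.964 CPM in DMSO and 69.3 ± 2.84, 54.0 ± 4.06 and 40.0 ± 0.445 in GDC, GSK and COMBO (SD, n = 3), a change of -1.15 in COMBO. It thus fell in the same arms as BAK1. DYNLL1, a dynein light chain that tethers BIM, changed by -0.26, -0.11 and -0.62 in GDC, GSK and COMBO, and the GSK value turned positive with library totals.

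Of 12 transcription factors known to act on these members, 6 rose and 3 fell in GDC, 6 rose and 4 fell in GSK, and 7 rose and 4 fell in COMBO, with medians of 0.061, 0.22 and 0.36, beside 0.016, 0.058 and 0.054 over all genes. The calls numbered 9, 10 and 11 of 12, beside 40.1%, 75.7% and 82.5% of all tested genes. FOXO3 was at 139 ± 7.28 CPM in DMSO and 201 ± 12.9, 361 ± 14.4 and 582 ± 38.8 in GDC, GSK and COMBO (SD, n = 3), with a log2 fold change of 2.07 in COMBO (SE 0.058, adjusted p = 2.11e-17). FOXO4 changed by 0.82, 0.88 and 1.70 in the same order. E2F1, a cell cycle factor, moved the other way, from 94.7 ± 3.97 CPM in DMSO to 68.2 ± 3.02, 37.1 ± 3.65 and 9.90 ± 0.265 in GDC, GSK and COMBO (SD, n = 3), a change of -3.26 in COMBO (SE 0.073, adjusted p = 1.03e-18). Transcript levels do not measure the activity of these factors.

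Downstream of the mitochondria, 2 of 13 genes of the caspase machinery rose and 4 fell in GDC, 4 rose and 6 fell in GSK, and 6 rose and 6 fell in COMBO. The calls numbered 6, 10 and 12 of 13, beside 40.1%, 75.7% and 82.5% of all tested genes. CYCS, which encodes cytochrome c, was at 885 ± 32.2 CPM in DMSO and 636 ± 47.5, 381 ± 4.37 and 223 ± 29.1 in GDC, GSK and COMBO (SD, n = 3), a change of -1.99 in COMBO (SE 0.069, adjusted p = 6.78e-16). BIRC5, which encodes survivin, changed by -0.66, -1.06 and -2.33 in GDC, GSK and COMBO. APAF1, the scaffold of the apoptosome, rose by 0.46, 0.58 and 1.05. The list medians were -0.14, 0.022 and -0.10, beside 0.016, 0.058 and 0.054 over all genes.

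**Figure D5:**
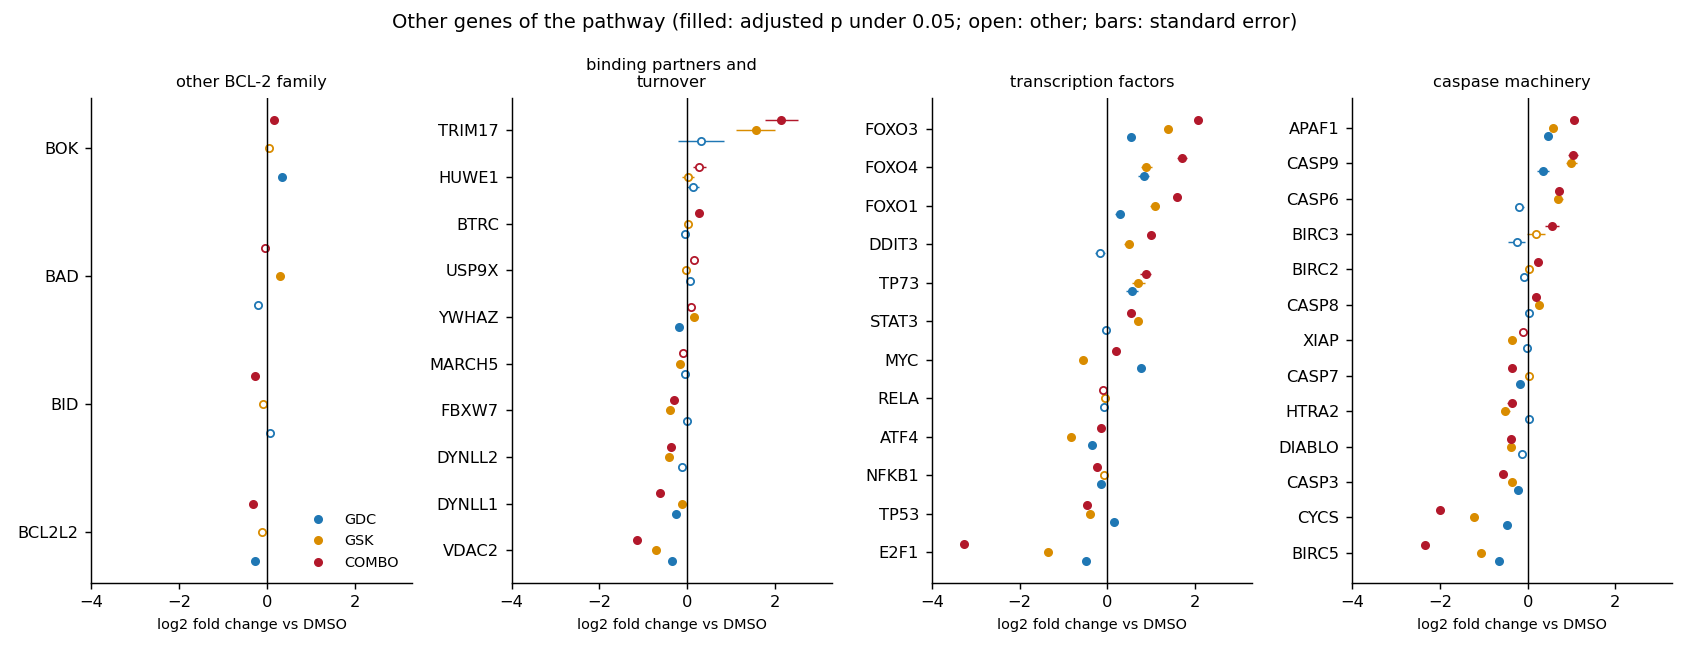
Log2 fold change against DMSO (horizontal axes, with standard errors) of the tested genes in 4 lists around the members, in GDC, GSK and COMBO; filled points passed an adjusted p of 0.05. The 3 FOXO genes lie at the top of their panel and E2F1 at the bottom, at -3.26 in COMBO, and CYCS and BIRC5 lie lowest among the caspase genes, at -1.99 and -2.33.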

How the data were processed

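PolyA RNA-seq was analysed in 12 libraries. The authors aligned reads to hg38 with STAR and summed them over genes with HTSeq, and the deposited counts are raw whole reads for each gene symbol. Tool versions, gene annotation and strand setting were not given in the sources used here, so overlapping genes are uncertain. A deposited table of counts divided by DESeq2 size factors was not used. Lines for reads outside genes stayed out of library sizes.

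Changes were tested with glmQLFit and glmQLFTest of edgeR 4.0.16 (R 4.3.3, two-sided) with TMM scaling, filterByExpr (14189 genes) and all 12 libraries in 1 fit without covariates. Benjamini-Hochberg adjustment was made over all tested genes. The biological coefficient of variation was 0.0499. TPM were computed from merged exon lengths of GENCODE 44, with 21469 of the symbols (92.4%) placed by current or older names, and hold 98.9% or more of each library's counts. Promoter windows came from RefSeq.

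All 10 members are named. From each list of pathway genes the up to 3 called genes with the largest absolute change in COMBO are named, as are the 3 genes most like BMF and most like PMAIP1. HRK, BCL2A1, BCL2L10, BAD and the markers were named after their values were seen. The members and lists were chosen with earlier results of these data known. Alternatives were DESeq2 1.42.0, its size factors or library totals in place of TMM, 2 other filters on low counts (none, or a mean CPM of at least 1), a limit on fold change, the compared arms alone, a replicate block, fits without each library, and other gene lengths and member sets for the balance. The scripts were tested on simulated data.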

Additional observations from a re-analysis of the deposited data

Results flagged for a closer look

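The response of BMF to GDC-0941 differed with and without GSK126 by the interaction term in edgeR, a call that most alternatives did not keep. BMF changed by 0.69 on the log2 scale between DMSO and GDC and by 0.39 between GSK and COMBO, a difference of -0.29 (SE 0.088, adjusted p = 0.0207). The call was lost in 11 of 18 alternatives, with an adjusted p of 0.0729 in DESeq2 and, in edgeR, 0.229 without the filter on low counts and 0.0199 to 0.197 without 1 library in turn. With 3 libraries per arm, no group was large enough to test single libraries for distance from the rest.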

How the results depend on the processing

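Of 39 calls of a member in a comparison, 32 kept their side of the threshold in all alternatives other than the limit on fold change, and 7 were lost in at least 1. When a change of at least 1 on the log2 scale was also required, the members called numbered 1, 2 and 4 for GDC, GSK and COMBO against DMSO, 2 when COMBO was set against GDC, 1 when it was set against GSK, and 0 for the interaction. The interaction also had 0 members called with DESeq2, without the filter and with the filter on mean CPM, and 0 to 1 without 1 library. Library totals raised the median log2 change of all genes from 0.058 to 0.21 (GSK) and from 0.054 to 0.26 (COMBO against DMSO). With them the MCL1 change was 0.016 for COMBO relative to DMSO and 0.046 relative to GDC, and that of DYNLL1 was 0.042 in GSK. The replicate letters did not pair the libraries, since the deviations of libraries with the same letter correlated at -0.25 to 0.36 with a median of -0.065. A replicate block changed 1 member call, that of BCL2L11 in GDC (0.13, adjusted p = 0.0713 in edgeR), and left 5 members called in GDC.

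The balance depended on how it was built. For GDC its log2 difference from DMSO was 0.18 with the difference of mean log2 levels, 0.25 with the BH3-only members, -0.13 with the effectors and 0.054 without BMF. For GSK it was 0.19 with the longest transcript, 0.68 without division by length, 0.21 with mean log2 levels, 0.80 with the BH3-only members, -0.69 with the effectors, -0.0028 without BMF and 0.12 without the members that overlap genes or have pseudogenes. For COMBO it was 0.34 with the longest transcript, 0.90 without division by length, 1.07 with the BH3-only members, -0.96 with the effectors and 0.052 without BMF. Without 1 library in turn it ranged from 0.055 to 0.11 (GDC), 0.27 to 0.32 (GSK) and 0.43 to 0.51 (COMBO). The cause of these shifts beyond the change of members or lengths was not tested. The pathway genes named beside the members went through the same alternatives, chosen after seeing the data.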
